A study of Mus musculus with 10 samples.

Results

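The 39 interferon-stimulated genes examined here are genes that mouse cells switch on after type I or type II interferon, and they were taken by symbol from a list of sensors, transcription factors and antiviral effectors. All 39 were among the 23417 genes of each Huwe1 table and the 23431 genes of the USP10 table. mRNA was sequenced from C2C12 cells, a mouse myoblast line that fuses into myotubes when serum is lowered. The tables compare knockdown of Huwe1, an E3 ubiquitin ligase, or overexpression of USP10, a deubiquitinase, with control cells. The study asked how these enzymes control the protein level of TBP, the TATA-binding protein, during muscle differentiation.

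The day 0 group was proliferating myoblasts, with 1 wild type library and 2 libraries of cells carrying an shRNA against Huwe1. The day 6 group was the same kind of cell after 6 days in differentiation medium, again with 1 wild type library and 2 knockdown libraries. The paper reported that the knockdown cells formed myotubes poorly by then. For the day 8 group, cells that had already begun to form myotubes were infected with the shRNA virus, and there were 1 control library and 2 knockdown libraries. The day 8 control is labelled with a non-targeting RNA but headed as wild type in its table, and the methods also describe wild type cells. The last group was 1 library at day 6 from a stable line that expresses USP10 cDNA from the EF1a promoter. By the paper, cells overexpressing USP10 did not form myotubes in that medium. The shRNAs were delivered by lentivirus and the cells selected with puromycin, while the day 0 and day 6 controls are labelled wild type. Effects of the virus, the hairpin and the drug therefore cannot be told apart from loss of Huwe1 at those stages. The USP10 line is likewise set against a column headed as wild type. Effects of making the stable line therefore cannot be told apart from USP10 itself.

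The values are FPKM, in which counted fragments are divided by the length of the transcript and by the size of the library, so levels are per transcript length. Each table holds 1 value per gene and condition, in which the authors pooled the 2 knockdown libraries, so no replicate error exists for any value and no test was made. A gene is called at least 2-fold higher or lower where log2((treated + 0.01)/(control + 0.01)) reached 1 or -1 and at least 1 of its 2 values was at least 1 FPKM. From the step size of low values, the control libraries held about 21900000 fragments at day 0, 29900000 at day 6, 18100000 at day 8 and 7800000 in the USP10 table. On a transcript of 2000 bases, 3 fragments were worth 0.0685, 0.0502, 0.0828 and 0.192 FPKM, and 5, 9, 7 and 13 of the 39 genes lay below these levels, so they were at the limit of detection there. The USP10 control is named like the day 6 control but its values differ, so its library was not identified. Over 11459 genes, 19.9% differed at least 2-fold between these control columns. Their estimated depths were 7800000 fragments for the USP10 control and 29900000 for the day 6 control. Whether any reads are common to both columns was not tested. The tables were normalized separately, so levels from different tables are compared as a description only.

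Interferons bind receptors that activate the kinases Jak1 and Tyk2, or Jak1 and Jak2, which phosphorylate transcription factors such as Stat2. Stat2 and Irf9 act in a complex that binds the interferon-stimulated response element (ISRE), while the gamma-activated site (GAS) is the other main element of the pathway. Many of the genes switched on in this way recognise viral RNA, block translation or modify proteins, and skeletal muscle cells can express them.

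The hairpin targets are shown because they define the knockdown and were searched for matches to the genes described. The labels give 1 pair for the day 0 and day 6 libraries and another for day 8, whereas the methods list only the day 8 pair, for myoblasts and myotubes alike, so which pair the earlier libraries carried is uncertain. Of the pair labelled day 0 and day 6, the first matched exon 32 of Huwe1 (GRCm38, chrX:151883185-151883203, plus strand) and the second crossed the junction of exons 8 and 9 (chrX:151852544-151853408), both in the coding region. Of the day 8 pair, the first matched the 3′ UTR in exon 83 of 83 (chrX:151934876-151934896) and the second crossed the junction of coding exons 19 and 20 (chrX:151862387-151862654). None of the 4 matched a transcript of another gene exactly, on either strand.
Hairpin 1 as labelled for day 0 and day 6: gggaacctgtgattcgaga
Hairpin 2 as labelled for day 0 and day 6: gagaagaggacaactagta
Day 8 hairpin 1: gcactcttcataactcacttt
Day 8 hairpin 2: gcactgctcatcaaagatgtt

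Promoters are shown for Isg15, Ifit1 and Ifit3, which were among the members with the larger log2 ratios at day 6, and for Lgals3bp, which had a high ratio without the ISRE letters. The 250 bases before the RefSeq start are given (GRCm38.p6), with matches to GAAANNGAAA on either strand in capitals. They lie at chr4:156200819-156201068 (minus strand) for Isg15, chr19:34640639-34640888 (plus) for Ifit1, chr19:34583279-34583528 (plus) for Ifit3 and chr11:118401960-118402209 (minus) for Lgals3bp.
Isg15: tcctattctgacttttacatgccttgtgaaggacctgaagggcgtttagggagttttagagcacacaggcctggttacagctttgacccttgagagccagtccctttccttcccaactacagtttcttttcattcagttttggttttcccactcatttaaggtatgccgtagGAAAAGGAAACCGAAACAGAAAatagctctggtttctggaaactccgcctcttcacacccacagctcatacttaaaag
Ifit1: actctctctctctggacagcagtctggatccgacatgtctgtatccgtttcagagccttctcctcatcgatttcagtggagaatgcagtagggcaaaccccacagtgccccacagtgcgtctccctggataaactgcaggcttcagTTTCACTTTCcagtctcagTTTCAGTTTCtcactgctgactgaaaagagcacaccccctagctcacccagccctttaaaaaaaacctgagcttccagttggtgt
Ifit3: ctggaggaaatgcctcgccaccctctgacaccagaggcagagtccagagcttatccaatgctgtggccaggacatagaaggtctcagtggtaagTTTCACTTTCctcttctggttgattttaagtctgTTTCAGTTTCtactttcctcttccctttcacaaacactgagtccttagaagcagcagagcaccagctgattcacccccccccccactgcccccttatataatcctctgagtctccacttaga
Lgals3bp: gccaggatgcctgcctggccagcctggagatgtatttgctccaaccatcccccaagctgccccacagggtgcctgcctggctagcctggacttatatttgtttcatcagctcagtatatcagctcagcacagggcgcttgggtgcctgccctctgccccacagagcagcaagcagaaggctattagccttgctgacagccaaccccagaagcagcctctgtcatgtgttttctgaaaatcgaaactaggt

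Isg15 held 3 overlapping matches, the first 78 bases before the start, and Ifit1 and Ifit3 held 2 each. RefSeq promoters were found for 30 of the 39 genes, and in windows from 250 bases before to 50 after the start, 16 of them (53.3%) held GAAANNGAAA, against 3.99% of 27025 genes. TTCNNNGAA, the letters of the GAS, was in 8 of the 30 (26.7%) and in 9.55% of all genes; the 2 motifs were searched on both strands and can overlap. At day 6 the median log2 ratio was 4.22 for the 16 genes with the ISRE letters (range 0.86 to 7.40) and 3.25 for the 14 without (-0.03 to 7.07), so the ranges overlapped. For the GAS letters the medians lay the other way, at 1.67 for the 8 genes with them and 4.81 for the 22 without. Only exact matches of letters were searched, so a near match, as in a promoter printed without capitals, was not counted. A match does not show that a factor was bound.

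The knockdown was checked first. Huwe1 mRNA was 38.3 FPKM in control cells and 15.2 in knockdown cells at day 0, 35.1 and 21.9 at day 6, and 55.4 and 33.0 at day 8, so it was lower at each stage but past the 2-fold limit at day 0 alone. Usp10 was 10.3 FPKM in the control and 38.3 in the overexpression line, and Huwe1 was 44.7 and 41.0 there. At day 6, Usp10 was also higher in the Huwe1 knockdown, at 35.4 against 13.2 FPKM. At the other stages Usp10 was within 2-fold, at 68.5 FPKM in control and 64.2 in knockdown cells at day 0, and 14.5 and 13.1 at day 8.

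In undifferentiated myoblasts, most of the interferon-stimulated genes that could be measured were within 2-fold. Of the 18 genes with at least 1 FPKM, 1 was at least 2-fold higher in the knockdown and 0 were lower, against 1.9% and 1.69% of all genes past the filter. The same 18 genes had at least 1 FPKM in the control, where the shares over all genes with that control level were 0.856% higher and 1.73% lower. The median log2 ratio was 0.09, beside 0.00 for all genes. Without the filter, 7 of the 39 were at least 2-fold higher and 2 lower, with Ifit1 among the higher at 0.326 and 0.948 FPKM. The share of all genes without the filter was not counted. At day 6 most of them were higher in the knockdown. There, 34 of the 36 genes past the filter were at least 2-fold higher and 0 lower, against 17.6% and 13.4% of all genes, and the median log2 ratio was 3.39 beside -0.01. Of these 36 genes, 20 passed the filter through the knockdown column alone, so the count over them was bound to be high. Among the 16 genes with at least 1 FPKM in the control, 14 were at least 2-fold higher and 0 lower, against 11.9% and 14.5% of all genes with that control level, with a median log2 ratio of 1.67.

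In day 8 myotubes, 10 of 21 genes were at least 2-fold higher and 0 lower, against 7.89% and 10% of all genes. With at least 1 FPKM in the control, 6 of 17 genes were at least 2-fold higher and 0 lower (4.85% and 10.5% of all genes), and the median log2 ratio was 0.83. In the USP10 overexpression line at day 6, 15 of 27 genes were at least 2-fold higher and 1 was lower, against 9.7% and 10% of all genes. With at least 1 FPKM in the control, 7 of 18 were at least 2-fold higher and 1 lower (6.74% and 10.5% of all genes), with a median log2 ratio of 0.82. Of the genes past the filter, 10 of 18 had a higher value in the treated than the control column at day 0, 35 of 36 at day 6, 19 of 21 at day 8 and 25 of 27 with USP10, against 50.3%, 49.7%, 50.1% and 53.3% of all genes. Some of these passed through the treated column alone, namely 0, 20, 4 and 9 genes.

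**Figure D1:**
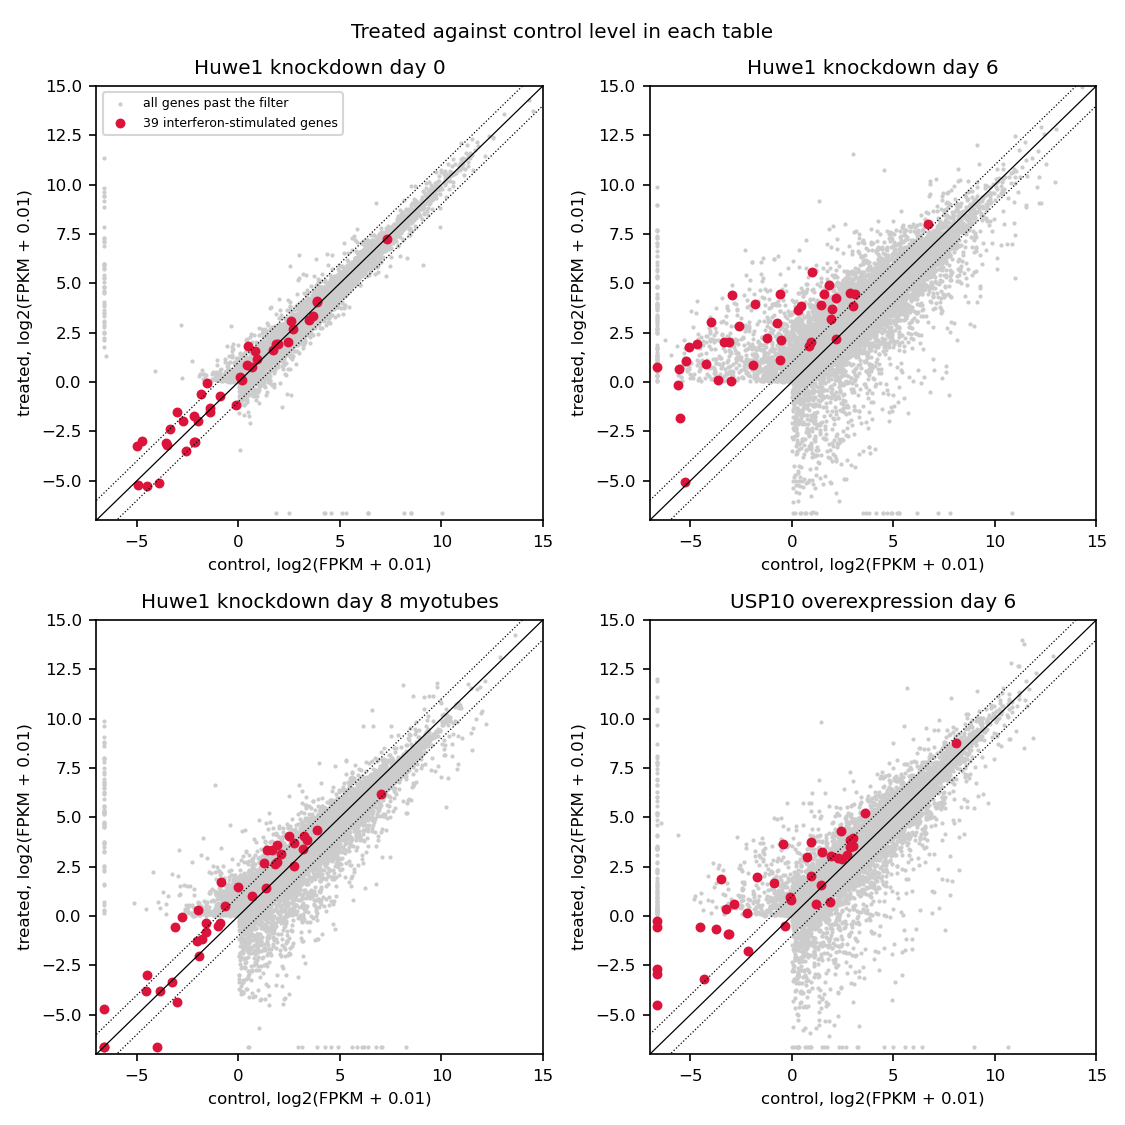
Level of each gene in the treated column (y axis) against the control column (x axis), both as log2(FPKM + 0.01), in the 4 tables. Grey points are all genes past the filter and red points the 39 interferon-stimulated genes, with the solid line at equality and dotted lines at 2-fold. At day 0, 17 of the 18 members past the filter lie within the dotted lines. Without the filter, 7 of the 39 were at least 2-fold higher there and 2 lower. At day 6 of the knockdown 38 of 39 lie above the solid line. Past the filter these are 35 of 36, against 49.7% of all genes. Shares of all genes without the filter were not counted.

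The levels themselves are given as a description. In the day 6 knockdown 15 of the 39 genes reached 10 FPKM, against 1 in its control, and the median level over the 39 was 4.63 against 0.582 FPKM. The median was 0.519 in the control and 0.639 in the knockdown at day 0, 0.547 and 1.39 at day 8, and 0.924 and 2.96 in the USP10 table. Of the 8 columns, the day 6 knockdown held the highest value for 33 genes. Shares of all genes at 10 FPKM, or with their highest value in a given column, were not counted. The ranks also run across tables that were normalized separately. Dtx3l, Parp9, Parp14 and Samd9l were highest in the day 8 knockdown, Ifitm3 in the USP10 line and Oasl1, near the detection limit everywhere, in the day 0 knockdown.

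**Figure D2:**
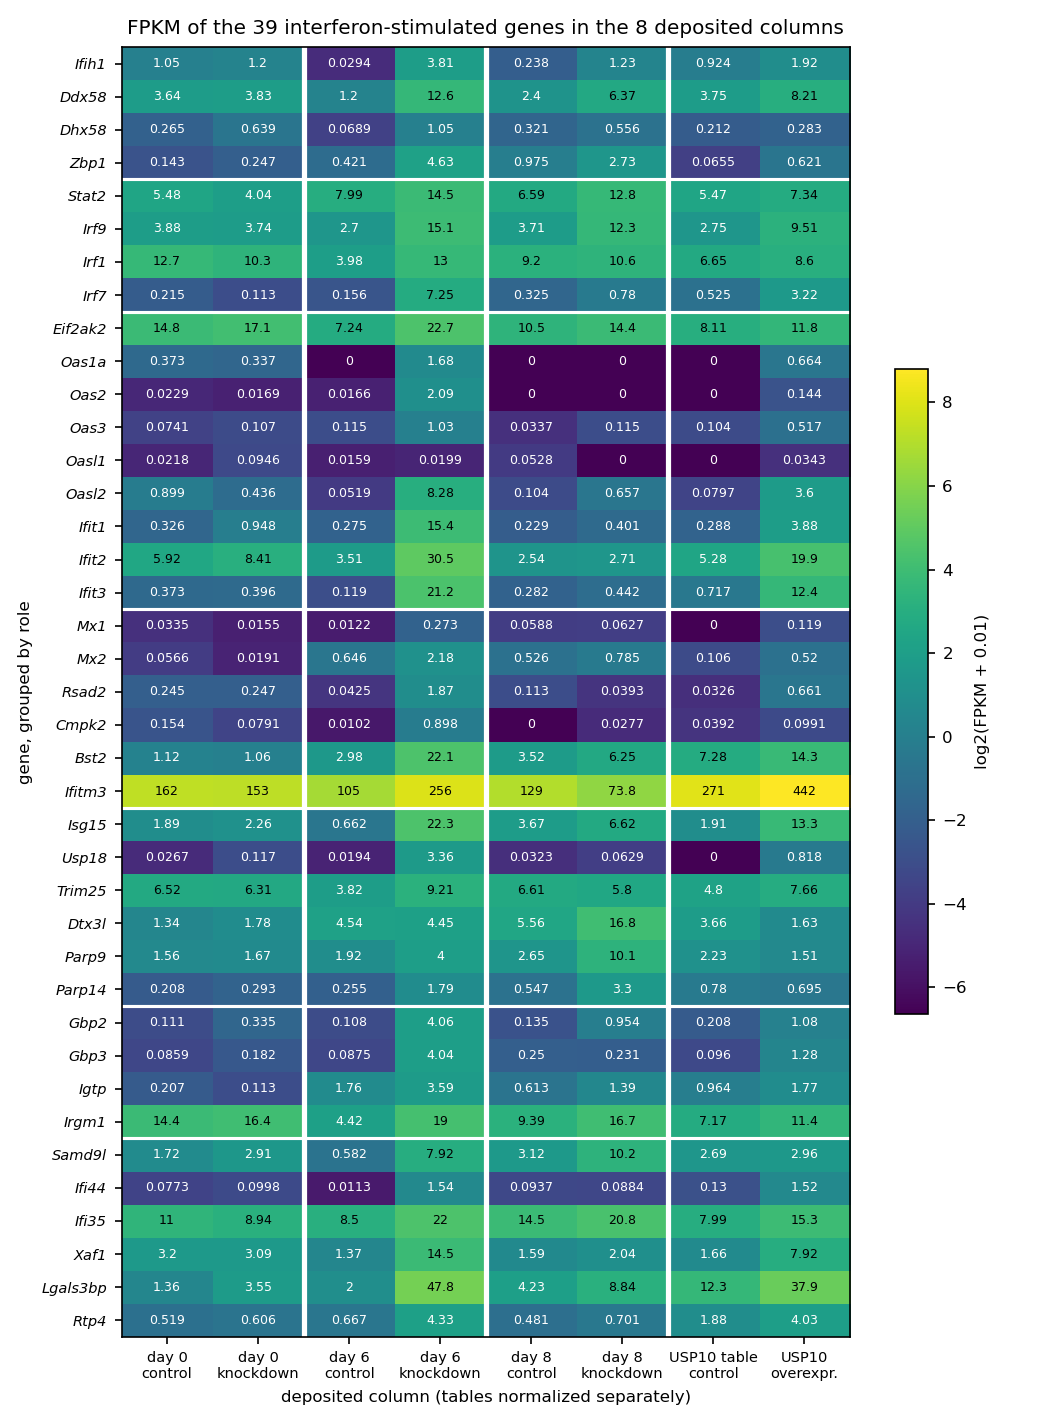
FPKM of the 39 genes (rows, grouped by role) in the 8 deposited columns, with the value printed in each cell and color for log2(FPKM + 0.01). The day 6 knockdown column holds the highest value in 33 rows, and the tables were normalized separately. The share of all genes with their highest value in that column was not counted.

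The sensors detect foreign nucleic acid. All 4 were at least 2-fold higher in the day 6 knockdown, but 3 of them, all except Ddx58, passed the filter through the knockdown column alone and so had to be higher. Ddx58, which encodes RIG-I, a sensor of RNA with 5′ triphosphate ends, was 3.64 FPKM in control and 3.83 in knockdown cells at day 0, 1.20 and 12.6 at day 6, 2.40 and 6.37 at day 8, and 3.75 and 8.21 with USP10. It was within 2-fold at day 0 and 10.5-fold, 2.66-fold and 2.19-fold higher in the other comparisons. Ifih1, which encodes MDA5, a sensor of long double-stranded RNA, was 1.05 and 1.20 FPKM at day 0, 0.0294 and 3.81 at day 6, 0.238 and 1.23 at day 8, and 0.924 and 1.92 with USP10. Its day 6 control was below the level of 3 fragments, so no fold is given there. Its knockdown level at day 6 was 3.62 times the highest of the 4 controls.

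Dhx58, which encodes LGP2, a regulator of these sensors, was 0.265 and 0.639 FPKM at day 0, 0.0689 and 1.05 at day 6, 0.321 and 0.556 at day 8, and 0.212 and 0.283 with USP10. Zbp1, a sensor of Z-form nucleic acid, was 0.143 and 0.247 FPKM at day 0, 0.421 and 4.63 at day 6, 0.975 and 2.73 at day 8, and 0.0655 and 0.621 with USP10. Both reached 1 FPKM in the day 6 knockdown, and Zbp1 also in the day 8 knockdown.

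The transcription factors carry the signal to the genes. Irf9, the DNA-binding partner of Stat2, was 3.88 FPKM in control cells and 3.74 in knockdown cells at day 0, 2.70 and 15.1 at day 6, 3.71 and 12.3 at day 8, and 2.75 and 9.51 with USP10. It was 5.57-fold, 3.30-fold and 3.46-fold higher in the last 3 comparisons. Stat2 was 5.48 and 4.04 FPKM at day 0, 7.99 and 14.5 at day 6, 6.59 and 12.8 at day 8, and 5.47 and 7.34 with USP10. Its log2 ratios of 0.86 at day 6 and 0.96 at day 8 were the nearest below the 2-fold limit at these stages.

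Irf7, which amplifies interferon production, was 0.215 and 0.113 FPKM at day 0, 0.156 and 7.25 at day 6, 0.325 and 0.780 at day 8, and 0.525 and 3.22 with USP10. It was 46.5-fold higher at day 6 and 6.15-fold higher with USP10, from control levels below 1 FPKM. Irf1, which is induced most strongly by interferon gamma, was 12.7 and 10.3 FPKM at day 0, 3.98 and 13.0 at day 6, 9.20 and 10.6 at day 8, and 6.65 and 8.60 with USP10. Only at day 6 did Irf1 pass the limit, at 3.26-fold, and its level in that knockdown lay beside the level of the day 0 control.

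Of the 9 genes that act on RNA or translation, 8 passed the filter at day 6 and were at least 2-fold higher, 6 of them through the knockdown column alone. Ifit2 and Eif2ak2 were the 2 with at least 1 FPKM in the control. The Ifit proteins bind viral RNA and hinder its translation. Ifit3 was 0.373 FPKM in control cells and 0.396 in knockdown cells at day 0, 0.119 and 21.2 at day 6, 0.282 and 0.442 at day 8, and 0.717 and 12.4 with USP10. Ifit1 was 0.326 and 0.948 FPKM at day 0, 0.275 and 15.4 at day 6, 0.229 and 0.401 at day 8, and 0.288 and 3.88 with USP10. Ifit2, the one with a clear control level, was 5.92 and 8.41 FPKM at day 0, 3.51 and 30.5 at day 6, 2.54 and 2.71 at day 8, and 5.28 and 19.9 with USP10. Ifit2 was thus 8.70-fold higher at day 6, 3.77-fold higher with USP10 and within 2-fold at day 0 and day 8. All 3 had their highest values in the day 6 knockdown and the next highest in the USP10 line.

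The Oas proteins make 2′-5′ oligoadenylate, which activates the nuclease RNase L. Oasl2, a related protein, was 0.899 and 0.436 FPKM at day 0, 0.0519 and 8.28 at day 6, 0.104 and 0.657 at day 8, and 0.0797 and 3.60 with USP10. Oas1a was 0.373 and 0.337 FPKM at day 0, and the value in the day 6 knockdown was 1.68 and in the USP10 line 0.664, while it was listed at 0 in the other 4 columns. Oas2 was 0.0229 and 0.0169 FPKM at day 0, 0.0166 in the day 6 control, 2.09 in the day 6 knockdown and 0.144 in the USP10 line, and was listed at 0 elsewhere. Oas3 was 0.115 FPKM in control cells and 1.03 in knockdown cells at day 6, and at most 0.517 in the other columns. Oasl1 stayed at or below 0.0946 FPKM in every column. Reads can be shared among the near copies in the Oas, Ifit, Mx, Ifitm and Gbp families, so the split between such members is uncertain.

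Eif2ak2, which encodes PKR, the kinase that stops translation on double-stranded RNA, was 14.8 and 17.1 FPKM at day 0, 7.24 and 22.7 at day 6, 10.5 and 14.4 at day 8, and 8.11 and 11.8 with USP10. It was 3.13-fold higher at day 6 and within 2-fold elsewhere.

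Among the 6 membrane, entry and nucleotide effectors, 4 passed the filter at day 6 and were at least 2-fold higher, Mx2 and Rsad2 through the knockdown column alone. In the other comparisons 2 passed the filter, Bst2 and Ifitm3, and neither passed the limit. Below the filter, Rsad2, Mx2 and Cmpk2 had log2 ratios of 3.98, 2.20 and 1.15 with USP10, from controls below the level of 3 fragments, where the ratio depends on the 0.01 added. Bst2, which encodes tetherin, a protein that holds budding virus at the cell surface, was 1.12 and 1.06 FPKM at day 0, 2.98 and 22.1 at day 6, 3.52 and 6.25 at day 8, and 7.28 and 14.3 with USP10. The increase was 7.43-fold at day 6, and the log2 ratio of 0.98 with USP10 lay just below the limit. Ifitm3, which blocks virus entry, was the most abundant member in all 8 columns, at 162 and 153 FPKM at day 0, 105 and 256 at day 6, 129 and 73.8 at day 8, and 271 and 442 with USP10. It was 2.44-fold higher at day 6, whereas at day 8 the log2 ratio was -0.81.

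Rsad2, which encodes viperin, makes an antiviral nucleotide from the product of Cmpk2. Rsad2 was 0.245 and 0.247 FPKM at day 0, 0.0425 and 1.87 at day 6, 0.113 and 0.0393 at day 8, and 0.0326 and 0.661 with USP10. Cmpk2 peaked at 0.898 FPKM in the day 6 knockdown and was at most 0.154 elsewhere. Mx2, a GTPase that traps virus, was 0.0566 and 0.0191 FPKM at day 0, 0.646 and 2.18 at day 6, 0.526 and 0.785 at day 8, and 0.106 and 0.520 with USP10. Mx1 was 0.273 FPKM in the day 6 knockdown, 0.119 in the USP10 line and at most 0.0627 in the other 6 columns. Laboratory mouse strains often carry a defective Mx1 gene.

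ISG15 is a ubiquitin-like protein that is joined to other proteins, and Usp18 removes it and also dampens the receptor. Isg15 was 1.89 FPKM in control cells and 2.26 in knockdown cells at day 0, 0.662 and 22.3 at day 6, 3.67 and 6.62 at day 8, and 1.91 and 13.3 with USP10. It was 33.6-fold higher at day 6 and 7.0-fold higher with USP10, and its log2 ratio at day 8 was 0.85. Among the ubiquitin, ISG15 and ADP-ribose enzymes, Isg15, Usp18 and Parp14 passed the filter at day 6 through the knockdown column alone. Usp18 was 0.0267 and 0.117 FPKM at day 0, 0.0194 and 3.36 at day 6, 0.0323 and 0.0629 at day 8, and was listed at 0 in the USP10 control and at 0.818 in the USP10 line. Ube2l6, the conjugating enzyme for ISG15 and no member of the 39, was 1.47 and 20.2 FPKM at day 6. Trim25, the ubiquitin ligase that activates RIG-I, was 6.52 and 6.31 FPKM at day 0, 3.82 and 9.21 at day 6, 6.61 and 5.80 at day 8, and 4.8 and 7.66 with USP10, and it passed the limit at day 6 alone.

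Dtx3l, Parp9 and Parp14 had a different order. Dtx3l is a ubiquitin ligase that works with Parp9, and Parp14 is a mono-ADP-ribosyltransferase. Dtx3l was 1.34 and 1.78 FPKM at day 0, 4.54 and 4.45 at day 6, 5.56 and 16.8 at day 8, and 3.66 and 1.63 with USP10. It was 3.02-fold higher at day 8, and with USP10 it was the 1 member that was at least 2-fold lower (log2 ratio -1.16), with a log2 ratio of -0.03 at day 6. Parp9 was 1.56 and 1.67 FPKM at day 0, 1.92 and 4.0 at day 6, 2.65 and 10.1 at day 8, and 2.23 and 1.51 with USP10. Parp14 was 0.208 and 0.293 FPKM at day 0, 0.255 and 1.79 at day 6, 0.547 and 3.30 at day 8, and 0.780 and 0.695 with USP10. All 3 had their highest values in the day 8 knockdown, and in the USP10 line none was above its control. Dtx3l and Parp9 lie head to head on chromosome 16 and share 558 bases in the annotation (GRCm38, Dtx3l chr16:35926515-35939027 and Parp9 chr16:35938470-35972621). The deposited tables list both under a single locus and the strand setting of the counting was not given in the sources used here, so their reads may be shared.

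**Figure D3:**
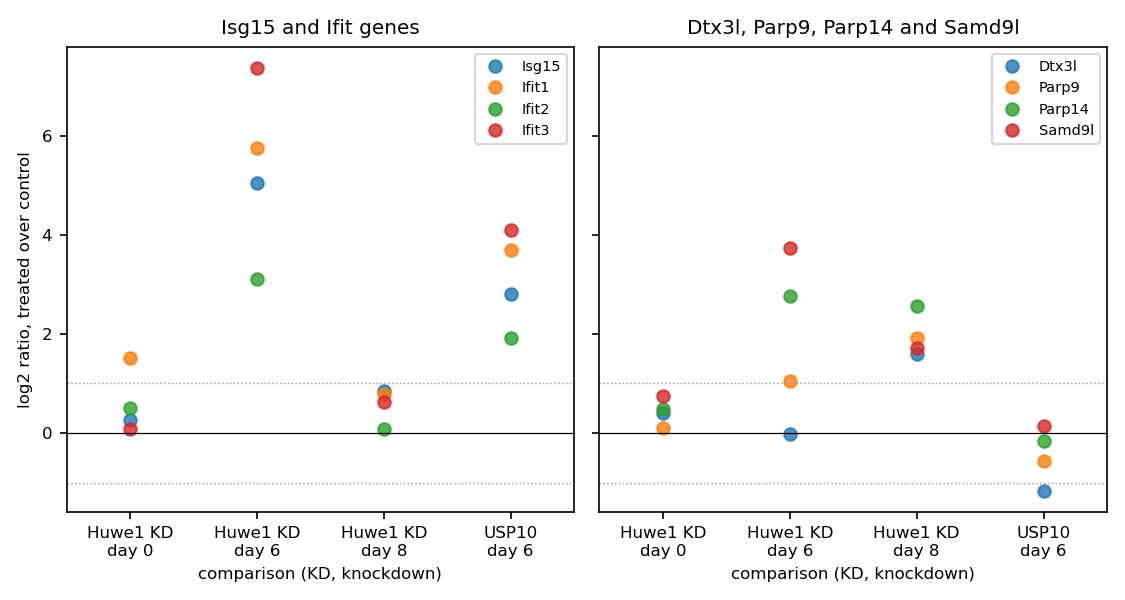
Log2 ratio of treated over control FPKM (y axis, 0.01 FPKM added) in the 4 comparisons (x axis) for Isg15 and the Ifit genes, left, and for Dtx3l, Parp9, Parp14 and Samd9l, right, with dotted lines at 2-fold. The right genes are the 4 members with their highest level in the day 8 knockdown, so they were chosen for that pattern. Day 8 increases were not confined to them. Of the 21 genes past the filter there, 10 were at least 2-fold higher and 0 lower, among them Ifih1 (log2 ratio 2.32) and Irf9 (1.72). The left genes have their highest ratios at day 6 and lie between 0.09 and 0.85 at day 8, whereas the right genes lie between 1.59 and 2.57 at day 8 and between -1.16 and 0.14 with USP10, although Parp14 and Samd9l had higher ratios at day 6 (2.76 and 3.74).

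The GTPases Gbp2, Gbp3, Igtp and Irgm1 act on the membranes around intracellular parasites and bacteria and are typical interferon gamma targets. Irgm1 was 14.4 and 16.4 FPKM at day 0, 4.42 and 19.0 at day 6, 9.39 and 16.7 at day 8, and 7.17 and 11.4 with USP10. It was 4.30-fold higher at day 6 and within 2-fold elsewhere. Gbp2 was 0.111 and 0.335 FPKM at day 0, 0.108 and 4.06 at day 6, 0.135 and 0.954 at day 8, and 0.208 and 1.08 with USP10. Gbp3 was 0.0859 and 0.182 FPKM at day 0, 0.0875 and 4.04 at day 6, 0.25 and 0.231 at day 8, and 0.0960 and 1.28 with USP10. Gbp2 and Gbp3 were at least 2-fold higher at day 6 and with USP10. In both comparisons they passed the filter through the treated column alone, and in the other columns they were below 1 FPKM. Igtp was 0.207 and 0.113 FPKM at day 0, 1.76 and 3.59 at day 6, 0.613 and 1.39 at day 8, and 0.964 and 1.77 with USP10, and its log2 ratio of 1.03 at day 6 was the lowest above the limit.

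The 6 remaining genes were at least 2-fold higher at day 6, of which Samd9l, Ifi44 and Rtp4 passed the filter through the knockdown column alone. Lgals3bp, a secreted galectin-binding glycoprotein, was 1.36 and 3.55 FPKM at day 0, 2.00 and 47.8 at day 6, 4.23 and 8.84 at day 8, and 12.3 and 37.9 with USP10. It was the 1 member above the limit at day 0, at 2.61-fold, and it was 23.9-fold, 2.09-fold and 3.07-fold higher in the other comparisons. Samd9l, an antiviral protein that restrains growth, was 1.72 and 2.91 FPKM at day 0, 0.582 and 7.92 at day 6, 3.12 and 10.2 at day 8, and 2.69 and 2.96 with USP10. It was 13.6-fold higher at day 6 and 3.27-fold higher at day 8, with a log2 ratio of 0.14 with USP10.

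Xaf1, which promotes cell death by acting on XIAP, was 3.20 and 3.09 FPKM at day 0, 1.37 and 14.5 at day 6, 1.59 and 2.04 at day 8, and 1.66 and 7.92 with USP10. Its increases of 10.6-fold at day 6 and 4.77-fold with USP10 had no counterpart past the limit at day 8. Ifi35 was 11.0 and 8.94 FPKM at day 0, 8.50 and 22.0 at day 6, 14.5 and 20.8 at day 8, and 7.99 and 15.3 with USP10. Rtp4 was 0.519 and 0.606 FPKM at day 0, 0.667 and 4.33 at day 6, 0.481 and 0.701 at day 8, and 1.88 and 4.03 with USP10. Ifi44 was 1.54 FPKM in the day 6 knockdown and 1.52 in the USP10 line, and at most 0.130 in the other 6 columns.

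**Figure D4:**
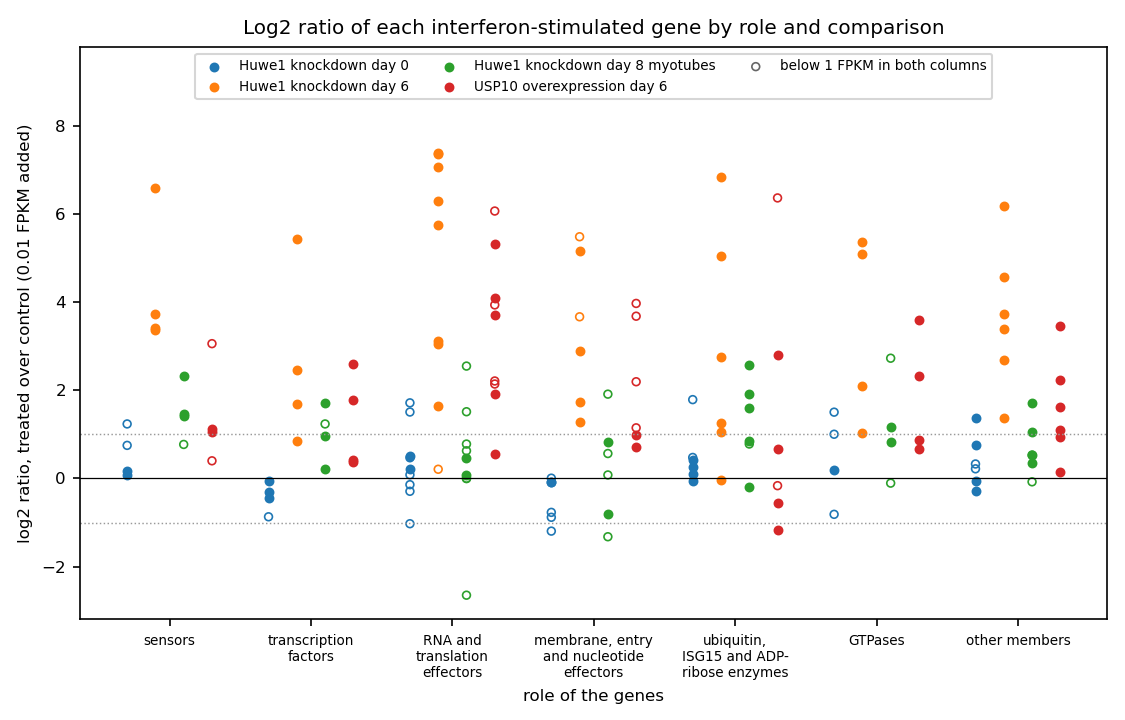
Log2 ratio of treated over control FPKM (y axis, 0.01 FPKM added) for each of the 39 genes, by role (x axis) and comparison (color). Open points are genes below 1 FPKM in both columns, whose ratios rest on few fragments, and dotted lines mark 2-fold. The day 6 knockdown holds 34 of 36 filled points above the upper line, and the day 0 knockdown 1 of 18. Of all genes past the filter, 17.6% and 1.9% were as high. At day 6, 20 of the 36 passed the filter through the knockdown column alone. Among genes with at least 1 FPKM in the control, 14 of 16 were above the line at day 6 and 1 of 18 at day 0. The shares of all genes with that control level were 11.9% and 0.856%.

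The day 6 control was itself low for many of these genes. It lay below the day 0 control for 27 of the 39, and at or below 0.5 times it for 16, among them Isg15, Ddx58, Irf1, Irgm1 and Xaf1. Among the 19 members with at least 1 FPKM in either control, 13 were below and 8 at or below 0.5 times, against 52% and 23.3% of 11653 genes. Of 14 housekeeping genes, 9 were also at or below 0.5 times their day 0 level. The day 6 knockdown was at least 2 times the day 0 control for 33 genes (31 of the 36 that reached 1 FPKM in either column, against 19% of all genes) and above the highest of the 4 controls for 36. For the other 6, Irf1, Eif2ak2, Oasl1, Ifitm3, Trim25 and Irgm1, it lay within 2-fold of the day 0 control. The control of the USP10 table was higher than the day 6 control for 26 genes and at least 2 times as high for 14. Over the 19 members with at least 1 FPKM in either control the median log2 ratio of those controls was 0.59, and 7 were at least 2-fold higher in the USP10 control and 0 lower. Over 11459 genes the median was -0.07, with 11.2% at least 2-fold higher. Set against the control of the USP10 table instead, the day 6 knockdown was at least 2 times as high for 31 of the 36 genes that reached 1 FPKM in either column, against 13% of all genes. In that control 13 of the 39 were below the level of 3 fragments, and the tables were normalized separately.

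Interferon mRNA itself was near the limit of detection. The highest value of any of 15 interferon genes in the 8 columns was 0.267 FPKM, for Ifnz in the day 6 knockdown, and 6 of the 15 were listed at 0 throughout. Ifnb1 was listed at 0 in all columns but the day 8 knockdown, at 0.0441 FPKM. Secreted interferon protein was not measured. The cytokine Il15 was 1.25 and 12.4 FPKM at day 6 and 0.852 and 2.04 at day 8.

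The receptors and kinases were present in all columns except Ifnlr1, the lambda receptor, which was at most 0.0825 FPKM. Ifnar1 was 6.35 and 7.67 FPKM at day 6, Ifnar2 31.1 and 40.9, Ifngr2 12.3 and 9.01, Jak1 33.1 and 61.4, and Tyk2 6.05 and 4.55, all within 2-fold. Ifngr1, at 11.7 and 33.6 FPKM, and Il10rb, at 5.44 and 30.4, were at least 2-fold higher at day 6. Jak2 was 10.3 and 31.3 FPKM at day 8, the 1 receptor or kinase past the limit there, and Il10rb at 12.0 and 31.1 was the 1 with USP10.

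A wider list of 116 interferon pathway genes outside the 39, of which 112 were found, was counted in the same way. At least 2-fold higher were 1 of 58 genes past the filter at day 0, 34 of 68 at day 6, 15 of 66 at day 8 and 18 of 65 with USP10, and lower were 1, 4, 6 and 3. Of all genes past the filter, 1.9%, 17.6%, 7.89% and 9.7% were higher, and 1.69%, 13.4%, 10% and 10% lower. Of the listed genes past the filter, 2, 21, 8 and 8 passed through the treated column alone. Among genes with at least 1 FPKM in the control, 1 of 56, 14 of 47, 8 of 58 and 11 of 57 were at least 2-fold higher, to be read against the shares of 0.856%, 11.9%, 4.85% and 6.74% of all genes. Over the listed genes past the filter, the median log2 ratios were -0.01, 1.01, 0.37 and 0.38. Ifi27l2a was 0.864 and 54.4 FPKM at day 6, and Lgals9, a galectin, was 1.46 and 20.4. Socs3, an inhibitor of Jak kinases, was 9.90 and 44.1 FPKM at day 8.

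Markers of other cells were examined in the same columns. C2C12 is a single line, so leukocytes should be absent, and Ptprc, the pan-leukocyte marker CD45, was at most 0.0102 FPKM, Cd3e at most 0.0203, and Emr1 was listed at 0 in every column. Summed over the 9 leukocyte markers, levels were 1.90 to 6.78 FPKM in controls and 4.28 to 7.51 in treated columns, mostly Cd14 and Cd68. Cd14 and Cd68 alone passed the filter. Cd14 was 3.62 and 5.37 FPKM at day 0, 0.777 and 4.74 at day 6, 0.784 and 1.73 at day 8, and 2.08 and 5.39 with USP10. Cd68 was 0.780 and 1.35, 1.48 and 1.35, 0.946 and 2.34, and 4.65 and 2.09 FPKM. All 6 myotube markers were at least 2-fold lower in the day 6 and day 8 knockdowns and 5 of 6 with USP10, Myog being 619 and 27.1 FPKM, 392 and 148, and 305 and 28.8. Mesenchymal markers summed to 164 and 4344 FPKM at day 6 with 7 of 8 at least 2-fold higher, 601 and 3967 with USP10 with 4 of 8, 737 and 1018 at day 8 with 2 of 8, and 988 and 610 at day 0 with 1 of 8. Dcn, the proteoglycan decorin, was 7.94 and 2987 FPKM at day 6. Of the 4 endothelial markers, 2 passed the filter at day 6, Cdh5 at 0.0241 and 6.83 FPKM and Tek at 0.0616 and 1.08, while Kdr was listed at 0 in both columns and Pecam1 was 0.02 and 0.0146. Cdh5 was also 13.5 and 11.2 FPKM at day 0 and 0.278 and 6.81 with USP10. Of 14 housekeeping genes, 0 were at least 2-fold lower in any comparison. At least 2-fold higher were 2 at day 6 (Actb and Tubb5), 2 with USP10 (Tbp and Polr2a) and 0 at day 0 and day 8. Tbp, whose protein the study followed, was 27.8 and 89.6 FPKM with USP10. The part of these shifts in the results for the interferon-stimulated genes was not tested, and in these bulk samples a change in the share of a cell type cannot be told apart from a change in RNA per cell.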

How the data were processed

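Polyadenylated RNA from 10 C2C12 libraries was sequenced on an Illumina HiSeq. Tophat was used by the authors for mapping and Cuffdiff for FPKM estimates; the deposited FPKM tables also hold their log2 fold changes, test scores, p-values and q-values, which were not used. The labels name Bowtie2 and mm10, and versions were not given in the sources used here. Each of 4 tables gives 1 FPKM column per condition, knockdown libraries pooled.

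The 39 genes, their roles and the other gene lists were chosen with earlier results of these data known. Any of the 39 could be named, with the 5 largest increases and 3 largest decreases in each comparison, plus ligands, receptors and kinases. Some genes of these lists are not reported here. Other pathway genes were named from those at least 2-fold changed with at least 5 FPKM in 1 column. Log2 ratios used a pseudocount of 0.01 FPKM and a minimum of 1 FPKM in at least 1 column. The median over all genes lay between -0.01 and 0.05. Depth was estimated from the steps of low FPKM values in genes with 1 transcript of at least 1500 bases; it covers counting error only and could not be had for pooled columns. Hairpins were matched to GENCODE M21 transcripts and promoters to RefSeq, in which all 39 symbols were found. The steps were tested on simulated data. Alternatives were pseudocounts of 0.1 and 1, other filters, centring and leaving out failed estimates. Python 3.11.15, pandas 2.3.3, numpy 2.4.6 and matplotlib 3.10.9 were used.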

Additional observations from a re-analysis of the deposited data

Results flagged for a closer look

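Ifitm3, which restricts virus entry, had log2 ratios of opposite sign with Huwe1 knockdown at 2 stages. Its log2 ratio was 1.29 at day 6 (105 to 256 FPKM) and -0.81 at day 8 (129 to 73.8 FPKM). Each stage has 1 value per condition, so the difference was not tested. The stages also differed in the order of infection and differentiation and, by the labels though not by the methods, in the hairpins, which cannot be told apart from the stage.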

How the results depend on the processing

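Replicates were pooled by the authors, so no single library could be left out. In the day 0, day 6, day 8 and USP10 controls, 5, 9, 7 and 13 of the 39 members lay below the level of 3 fragments. No paired analysis was possible because each condition has 1 column and no test was made. Counts of members at least 2-fold higher depended on the treatment of low values. With a pseudocount of 1, the count became 0 at day 0 (from 1) and 6 at day 8 (from 10), the count of lower members with USP10 became 0 (from 1), and the day 6 median log2 ratio became 1.78 (from 3.39). Without the filter, 7 genes were higher and 2 lower at day 0, 2 were lower at day 8 (from 0 in both cases), and 25 were higher with USP10 (from 15), where the median log2 ratio became 1.79 (from 1.10). With at least 5 FPKM in 1 column, the higher counts were 0 of 8 at day 0, 18 of 19 at day 6, 6 of 15 at day 8 and 7 of 15 with USP10, where 0 were lower. With at least 1 FPKM in both columns, or in the control column (chosen after seeing the data), they were 14 of 16 at day 6, 6 of 17 at day 8 and 7 of 18 with USP10, and the day 6 median was 1.67. In these settings fewer or more genes were counted by construction. Shares of all genes were not counted for other pseudocounts, without the filter, at 5 FPKM or with 1 FPKM in both columns. Those counts therefore have no background beside them. Centring on the median gene and leaving out failed estimates moved none of these values past the limits. Among the ratios of single members, 16 of 102 moved with a pseudocount of 0.1 and 32 with a pseudocount of 1, and none changed sign past the limit.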

Other observations

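Gbp4, Gbp6 and Gbp9, guanylate-binding GTPases from the same family as Gbp2 and Gbp3, were lower in the knockdown at day 6, where those members were higher, and at day 8. At day 6, Gbp4 was 8.61 FPKM in control cells and 1.10 in knockdown cells, Gbp6 19.4 and 1.84, and Gbp9 24.4 and 3.07. At day 8 the same genes were 9.99 and 1.43, 10.0 and 1.30, and 22.4 and 4.91 FPKM. They were 0.876, 0.910 and 1.19 FPKM in the control of the USP10 table, and 0.331, 0.656 and 0.556 FPKM in the USP10 line. At day 0 they were low, at 0.108 and 0.504, 0.0203 and 0.192, and 0.159 and 0.487 FPKM. Gbp3 was 0.25 and 0.231 FPKM at day 8. Reads may be shared among these near copies.

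A pair of interferon-inducible genes outside the 39 stood near their myoblast level in the day 6 knockdown. Aim2, a sensor of cytosolic DNA, was 21.5 FPKM in the day 0 control, 0.183 in the day 6 control and 21.4 in the day 6 knockdown, and 1.15 and 23.5 in the USP10 table. Ly6e, a membrane protein that restricts coronavirus entry, was 259, 14.7 and 218 FPKM in the same Huwe1 columns, and 57.9 and 226 in the USP10 table. These genes were chosen after their values were seen, and the order was not confined to them. In the same Huwe1 columns, Nmi was 4.03, 0.105 and 3.67 FPKM and Shisa5 25.5, 6.81 and 28.6. How many genes had this order was not counted, and the levels come from tables normalized separately.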
